A study of Rattus norvegicus with 8 samples.

Results

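Wnt pathway transcripts were examined in the outflow veins of rat arteriovenous fistulas (AVFs) treated with β-aminopropionitrile (BAPN) or vehicle scaffolds. The members were all genes whose names mark them as Wnt ligands, Frizzled (Fzd) receptors, co-receptors, R-spondins, secreted inhibitors, or the main intracellular transducers and T cell factors of the pathway. This rule found 62 of the 32623 genes listed. Znrf3 and Axin1 were not analysed here. In this study the epigastric vein was joined to the femoral artery in Sprague Dawley rats, and a bilayer nanofiber scaffold was wrapped around the vein. The scaffold was loaded with BAPN (a lysyl oxidase inhibitor that limits the crosslinking of collagen and elastin) in 4 rats (3 females and 1 male), and carried no drug in the other 4 (2 females and 2 males). Veins were collected after 21 days, so both groups had an AVF, a scaffold and the same healing time, and no vein without surgery was analysed here. RNA came from the whole wall, so that every value is a mixture of smooth muscle, fibroblasts, endothelium and infiltrating leukocytes.

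Wnt proteins are lipid-modified secreted signals that bind Frizzled receptors. In the β-catenin branch they also engage the co-receptors Lrp5 and Lrp6, which halts the complex of Axin and Apc that marks β-catenin for degradation, and β-catenin then works with the T cell factor (TCF) and Lef1 proteins on target genes. Other branches, often started by Wnt5a through Ror receptors, act on cell polarity and movement without β-catenin. In vessels the pathway is known for roles in smooth muscle growth, fibroblast activation and endothelial barrier formation.

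Depth differed between the groups. Between 45039451 and 52241007 reads were counted in the BAPN libraries and between 19548203 and 22442050 in the vehicle libraries, a ratio of 2.01 between the closest totals of the groups. Depth and treatment cannot be told apart. When all libraries were thinned to the smallest total, the same 13 members named next were called. Testing was limited to genes whose normalized counts averaged 100 or more over the 8 libraries (their base mean), and 34 of the 62 members passed. Levels are given as normalized counts-per-million (CPM) values. Log2 fold changes compare BAPN with vehicle, and the false discovery rate (FDR) is that of edgeR's quasi-likelihood test over all 11682 tested genes. Standard errors (SE) are from limma-voom. CPM is not divided by gene length, so levels were compared between groups for a gene but not between genes.

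Of the 34 tested members, 13 were downregulated at an FDR below 0.05, or 38.2%, while edgeR called 9.25% of all tested genes as lower. They were the ligand Wnt5a, the receptors Fzd2, Fzd4, Fzd6 and Ror1, the co-receptors Lrp5 and Lrp6, the R-spondin receptor Lgr4, the secreted inhibitor Sfrp2, the transducers Dvl3 and Axin2, and the nuclear factors Tcf7l1 and Tcf7l2. These decreases ran from 33.5% for Axin2 to 68.3% for Wnt5a. No tested member was upregulated in edgeR (0 at an unadjusted p below 0.05, and 0 in DESeq2), while 7.5% of all tested genes were called higher. The median log2 fold change of the 34 members was -0.59, and that of all tested genes was 0.02. Without Vehicle 4 the median of the members was -0.37. DESeq2 called 16 members as lower, the same 13 with Fzd7, Dkk2 and Porcn, against 15.1% of all tested genes. For 14 members every BAPN library lay below every vehicle library, which held for 11.9% of all tested genes. Because whole veins were sequenced, fewer cells of a type and less RNA per cell cannot be told apart.

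**Figure D1:**
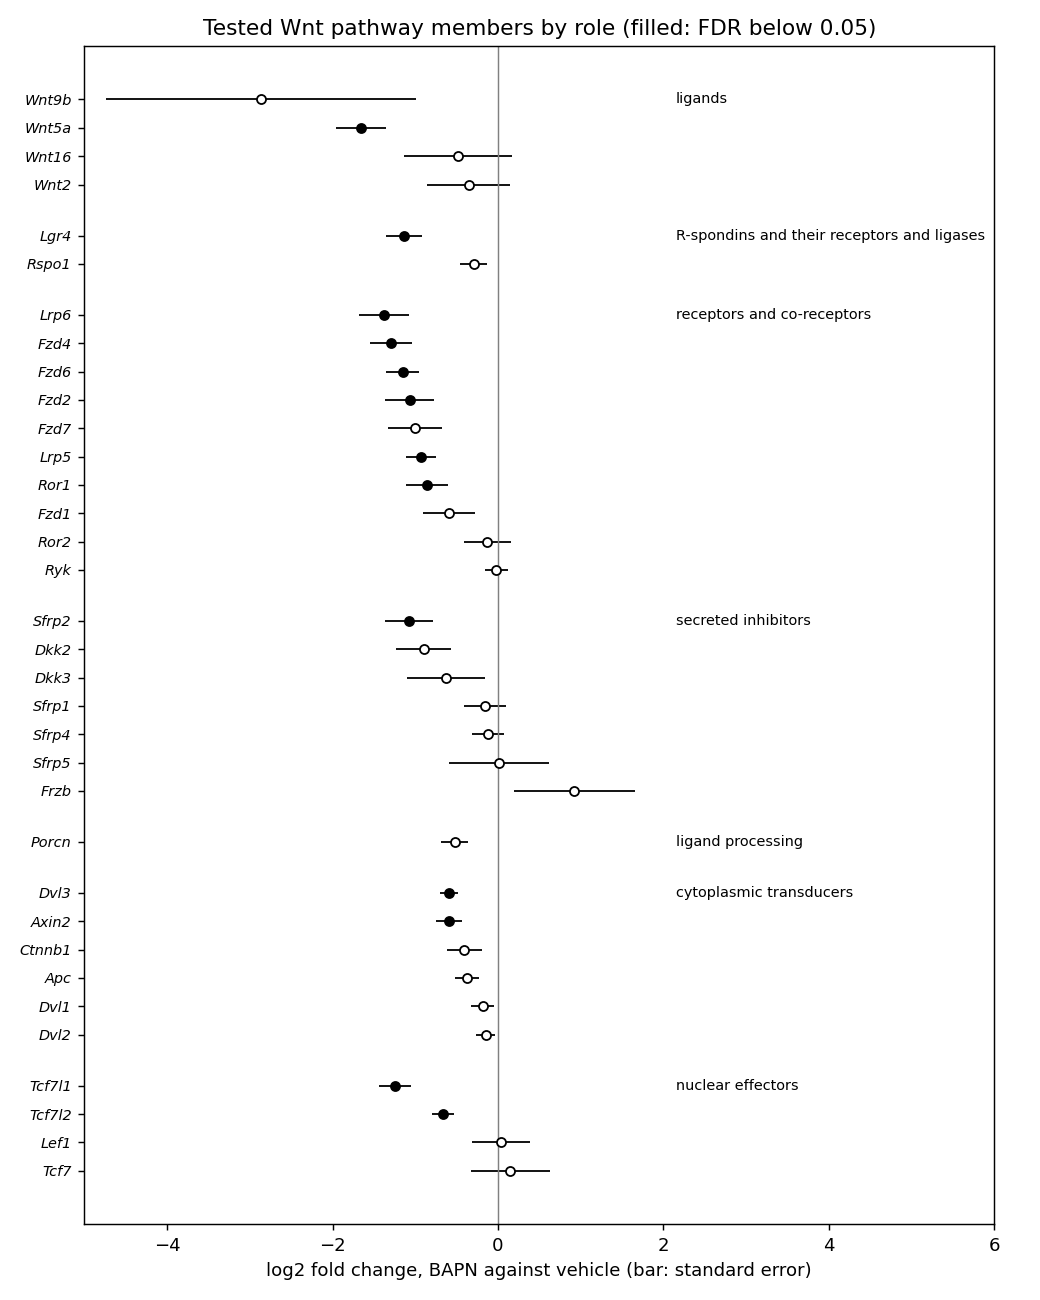
Log2 fold change of the 34 tested Wnt members (horizontal axis, BAPN against vehicle, with the standard error as a bar), grouped by role; filled points have an FDR below 0.05. All 13 filled points lie left of 0, and Frzb is the open point farthest to the right, at 0.93.

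The count of downregulated members depended on single libraries. It was 4 without Vehicle 1 and 8 without BAPN 4, and between 9 and 13 without any other library. Without Vehicle 1 edgeR also called fewer genes in all (397 in place of 1957), with 2.11% of the tested genes lower, and without BAPN 4 the share was 3.96%. The 4 members called in that fit were Wnt5a, Fzd6, Dvl3 and Tcf7l1, which kept their calls in each of the 8 fits with 1 library left out. Among females alone (3 against 2) no member was called, with 0.462% of all tested genes called lower, while the log2 fold changes of the 13 members ran from -1.95 to -0.50 (FDR 0.0598 to 0.264). With sex as a covariate 9 of the 13 were called, all but Axin2, Fzd2, Ror1 and Sfrp2, and 4.63% of all tested genes were called lower.

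**Figure D2:**
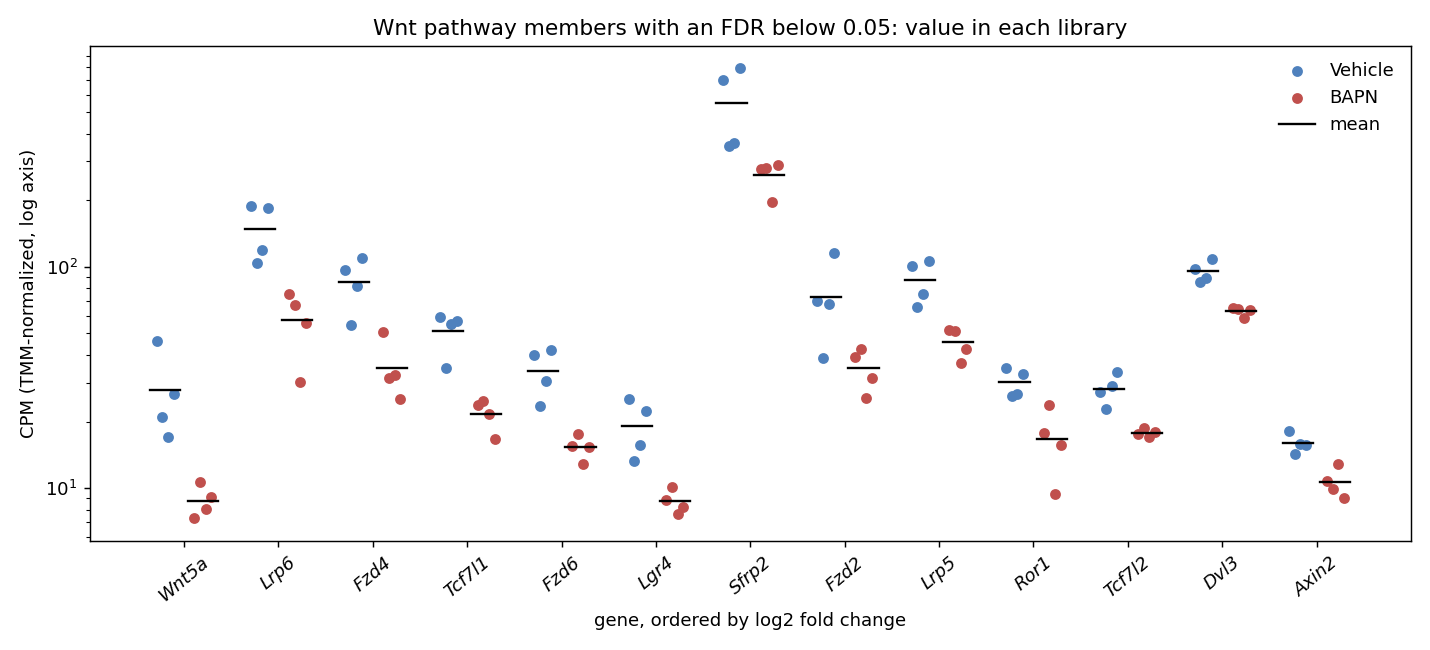
CPM of the 13 downregulated Wnt members in each of the 4 vehicle and 4 BAPN libraries (vertical log axis, points are libraries, black lines are group means), ordered by log2 fold change. The groups overlap only for Fzd2, where Vehicle 2 (38.7 CPM) lies among the BAPN libraries.

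Of 19 ligands, 4 passed the count filter and 1 of these was downregulated, beside 9.25% of all tested genes. Wnt5a, the prototype of signaling without β-catenin, was at 7.32, 10.7, 8.03 and 9.14 CPM in BAPN 1 to 4 and at 46.3, 20.9, 17.0 and 26.6 CPM in Vehicle 1 to 4. The BAPN libraries lay close together, whereas Vehicle 1 stood well above the other vehicle libraries. The group means were 8.79 ± 1.46 and 27.7 ± 13.0 CPM (SD, n = 4 in each group), and the log2 fold change was -1.66 (SE 0.30, FDR 0.0133). Without Vehicle 1 the log2 fold change was -1.29, and the call was kept. Wnt2, a ligand of the β-catenin branch, was at 3.28, 6.61, 3.14 and 2.84 CPM in the BAPN libraries and at 7.30, 5.24, 1.47 and 6.26 CPM in the vehicle libraries. Its groups overlapped (log2 fold change -0.35, FDR 0.617), and the value ran from -0.72 without BAPN 2 to -0.12 without Vehicle 1. Wnt16 also overlapped (-0.48, FDR 0.598), with -1.30 without BAPN 2 and -0.19 without BAPN 4.

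Wnt9b passed the count filter through a single library. It had 507 reads in Vehicle 1, 19 in Vehicle 2 and 0 in Vehicle 3 and in Vehicle 4, against 9 to 106 reads in the BAPN libraries. Its log2 fold change of -2.87 (SE 1.87, FDR 0.24) became 1.46 without Vehicle 1 (FDR 0.497), so that its direction rests on that rat. DESeq2 gave no FDR for it. Porcn, the enzyme that attaches the lipid to Wnt proteins, was at 12.6, 16.3, 15.7 and 13.5 CPM in the BAPN libraries and at 18.2, 20.9, 18.4 and 26.2 CPM in the vehicle libraries. Every BAPN library lay below every vehicle library (log2 fold change -0.52, SE 0.16, FDR 0.0542). It was called by DESeq2 (FDR 0.0143) and with total counts only as the scaling (FDR 0.0402).

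Receptors and co-receptors held the largest number of calls, with 6 of 10 tested members downregulated, beside 9.25% of all tested genes. Lrp6, a co-receptor of the β-catenin branch, was at 75.6, 67.5, 30.0 and 56.0 CPM in BAPN 1 to 4 and at 187, 104, 119 and 185 CPM in Vehicle 1 to 4. BAPN 3 was the lowest library, and the groups did not overlap. The means were 57.3 ± 19.9 and 149 ± 43.8 CPM (SD, n = 4 in each group), and the log2 fold change was -1.38 (SE 0.31, FDR 0.0205). Lrp6 lost its call without BAPN 4 (FDR 0.0504) or Vehicle 1 (FDR 0.0606). Its relative Lrp5 was at 51.8, 51.3, 36.7 and 42.5 CPM in the BAPN libraries and at 100.5, 65.9, 75.3 and 107 CPM in the vehicle libraries. Both groups kept apart for Lrp5 as well, with BAPN 3 and Vehicle 2 the lowest of their groups. The log2 fold change was -0.93 (SE 0.18, FDR 0.0161), and the call was lost without Vehicle 1 (FDR 0.0516).

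Among the Frizzled receptors, 3 of 5 tested were downregulated, beside 9.25% of all tested genes. Fzd4, known for its part in endothelial development, was at 50.9, 31.4, 32.5 and 25.4 CPM in the BAPN libraries and at 96.3, 54.6, 81.9 and 109.7 CPM in the vehicle libraries. The highest BAPN library was just below the lowest vehicle library. The log2 fold change was -1.29 (SE 0.25, FDR 0.0167), and it lost its call without Vehicle 1 (FDR 0.0527). Fzd6, a receptor linked to cell polarity, was at 15.4, 17.6, 12.8 and 15.3 CPM in the BAPN libraries and at 39.9, 23.4, 30.3 and 42.2 CPM in the vehicle libraries. Its groups did not overlap, the log2 fold change was -1.15 (SE 0.20, FDR 0.0114), and the call was kept whichever library was left out.

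Fzd2 was at 39.2, 42.6, 25.6 and 31.6 CPM in the BAPN libraries and at 70.04, 38.7, 67.7 and 115 CPM in the vehicle libraries, and Vehicle 2 fell inside the BAPN range. The log2 fold change was -1.07 (SE 0.30, FDR 0.0403). Its call was kept in the fewest of the 8 fits that left out 1 library, only that without Vehicle 2 (largest FDR 0.106, without BAPN 3), and limma-voom did not make it (FDR 0.0516). Without Vehicle 4 the log2 fold change was -0.76. Fzd7 was at 14.7, 18.4, 6.30 and 9.98 CPM in the BAPN libraries and at 21.4, 22.0, 20.4 and 35.4 CPM in the vehicle libraries. Those groups did not overlap, but the FDR was 0.061 in edgeR (log2 fold change -1.0, SE 0.32) against 0.0155 in DESeq2. Leaving out BAPN 2 brought the edgeR value to 0.0426. For Fzd1, the Frizzled gene with the highest base mean, BAPN libraries were at 131, 128, 86.1 and 95.4 CPM and vehicle libraries at 155, 123, 97.2 and 289.6 CPM. Vehicle 4 was far above the rest, the groups overlapped (log2 fold change -0.59, SE 0.31, FDR 0.206), and without Vehicle 4 the value was -0.18.

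Among the receptors for Wnt5a outside the β-catenin branch, Ror1 was downregulated, and Ror2 and Ryk were not called. Ror1, of the receptor tyrosine kinase family, was at 17.7, 23.7, 9.36 and 15.7 CPM in the BAPN libraries and at 34.8, 26.1, 26.7 and 32.7 CPM in the vehicle libraries. The groups did not overlap (log2 fold change -0.86, SE 0.26, FDR 0.0459). Its call was kept only without BAPN 2 or Vehicle 2 (largest FDR 0.116, without Vehicle 1), and it was also lost with the other filters on low counts (FDR 0.0538 and 0.0597). Ror2, its close relative, was at 32.6, 36.1, 24.1 and 24.9 CPM in the BAPN libraries and at 28.0, 17.9, 28.9 and 53.7 CPM in the vehicle libraries (log2 fold change -0.13, SE 0.28, FDR 0.783). Its sign rests on Vehicle 4, since the value was 0.24 without that library and 0.43 in females alone. The atypical receptor Ryk was at 58.2 to 62.8 CPM with BAPN and at 53.2 to 79.3 CPM with vehicle (log2 fold change -0.02, SE 0.13, FDR 0.94), and it was 0.13 without Vehicle 4. The difference between these receptors in their response was not tested.

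R-spondins are secreted agonists that bind Lgr receptors and keep Frizzled proteins at the cell surface. The receptor Lgr4 was at 8.88, 10.1, 7.66 and 8.22 CPM in the BAPN libraries and at 25.2, 13.2, 15.7 and 22.4 CPM in the vehicle libraries. No BAPN library reached the vehicle range. The means were 8.72 ± 1.07 and 19.1 ± 5.57 CPM (SD, n = 4 in each group), and the log2 fold change was -1.13 (SE 0.22, FDR 0.0161). The FDR was 0.0504 without Vehicle 1. Rspo1, the only R-spondin above the filter, was at 18.7, 16.4, 19.6 and 25.4 CPM in the BAPN libraries and at 27.6, 24.0, 24.8 and 21.7 CPM in the vehicle libraries. Its groups overlapped through BAPN 4 (log2 fold change -0.29, SE 0.16, FDR 0.202).

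Of the 7 secreted inhibitors tested, 1 was downregulated (14.3%), near the 9.25% of all tested genes. The difference between members in their response was not tested. The call was Sfrp2, a secreted Frizzled-related protein made by fibroblasts. It was at 277, 280.4, 196 and 289 CPM in the BAPN libraries and at 699.6, 349.9, 362 and 788 CPM in the vehicle libraries. The vehicle libraries fell into a higher pair, Vehicle 1 and Vehicle 4, and a lower pair that was still above every BAPN library. The log2 fold change was -1.08 (SE 0.29, FDR 0.0356). Its call was kept only without Vehicle 2 or Vehicle 3 among the 8 fits that left out 1 library (largest FDR 0.0966, without BAPN 3). The log2 fold change ran from -1.24 to -0.85 in those 8 fits.

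Sfrp4 had the highest base mean of the inhibitors and lay at 1026, 742, 935 and 791 CPM in the BAPN libraries and at 946, 931, 717 and 1199 CPM in the vehicle libraries. The groups overlapped throughout (log2 fold change -0.12, SE 0.19, FDR 0.68), and without Vehicle 4 the value was 0.01. Sfrp1 was at 132 to 221 CPM with BAPN and at 135 to 282 CPM with vehicle (log2 fold change -0.16, FDR 0.672).

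Frzb, also called secreted Frizzled-related protein 3, had the largest positive log2 fold change of the tested members, at 0.93 (SE 0.73, FDR 0.326). It was at 20.6, 14.6, 7.93 and 4.57 CPM in BAPN 1 to 4 and at 2.11, 2.77, 5.26 and 14.95 CPM in Vehicle 1 to 4. The females were at 7.93 to 20.6 CPM with BAPN and at 2.11 and 2.77 CPM with vehicle, whereas the BAPN male was below both vehicle males. For Frzb the log2 fold change was 0.53 without BAPN 1, 1.81 without Vehicle 4 (FDR 0.066) and 2.56 in females alone (FDR 0.0604). Sfrp5 was at 15.4 to 70.9 CPM with BAPN and at 10.7 to 52.2 CPM with vehicle, with a log2 fold change of 0.01 (SE 0.60, FDR 0.989). Here the BAPN male had the highest value, and the BAPN females (15.4 to 28.0 CPM) were below both vehicle females (45.8 and 52.2 CPM). The Dickkopf genes encode another family of secreted modulators, some of which block Lrp5 and Lrp6. Dkk2 had a log2 fold change of -0.90 (SE 0.34, FDR 0.104 in edgeR and 0.0478 in DESeq2). Vehicle 2 was its highest library at 16.9 CPM, and without it the log2 fold change was -0.51 (FDR 0.229). Dkk3, the divergent member, had a log2 fold change of -0.63 (SE 0.48, FDR 0.373). For Dkk3 Vehicle 4 was at 609 CPM, and the log2 fold change without it was -0.01.

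In the cytoplasm, 2 of 6 tested transducers were downregulated, beside 9.25% of all tested genes. Dvl3, a Dishevelled protein that relays the signal from Frizzled, was at 65.3, 64.7, 58.9 and 64.1 CPM in the BAPN libraries and at 98.0, 85.1, 89.4 and 109 CPM in the vehicle libraries. The BAPN libraries were tight, and the lowest vehicle library lay clear of the highest of them. The log2 fold change was -0.59 (SE 0.10, FDR 0.0123), with values from -0.64 to -0.52 when 1 library was left out. Its relatives Dvl1 (-0.19, FDR 0.354) and Dvl2 (-0.15, FDR 0.379) had overlapping groups, and without Vehicle 3 they were at -0.095 and -0.079. Ctnnb1, which encodes β-catenin, was at 259, 267, 197 and 240.2 CPM in the BAPN libraries and at 334, 239, 251.6 and 451 CPM in the vehicle libraries (log2 fold change -0.41, SE 0.21, FDR 0.2). Without Vehicle 4, its highest library, the value was -0.19. Apc, the scaffold of the complex that degrades β-catenin, had a log2 fold change of -0.38 (SE 0.15, FDR 0.0982), and its groups overlapped.

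Axin2, a scaffold of the same complex, is itself a known target gene of β-catenin and TCF. It was at 10.8, 9.86, 12.9 and 8.996 CPM in the BAPN libraries and at 18.1, 14.3, 15.9 and 15.7 CPM in the vehicle libraries. All BAPN libraries lay below all vehicle libraries. The means were 10.6 ± 1.66 and 16.0 ± 1.59 CPM (SD, n = 4 in each group), and the log2 fold change was -0.59 (SE 0.16, FDR 0.0361). The call was kept only without BAPN 3 or Vehicle 2 among the fits that left out 1 library (largest FDR 0.1, without Vehicle 1), and it was not made with no filter on low counts (FDR 0.065). Its log2 fold change was between -0.69 and -0.52 in those 8 fits.

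Promoter sequence was examined because Axin2 is a TCF target and 13 members decreased. RefSeq promoter windows on assembly GRCr8 were found by symbol for 46 of the 62 members, 9 of them among the 13. The 250 bases before the annotated start were searched on both strands for the TCF/Lef core written as CTTTGAA or as CTTTGAT. In 17 of the 46, among them 4 of the 9, the window overlaps the span that RefSeq gives for the gene and may not be its upstream promoter. Of the 9 windows of downregulated members, 1 held a match, that of Axin2 with 2. Among the 17 tested members that were not called, 0 windows had a match, and among all 27457 genes with a window 8.23% did. Wnt8a and Dkk1, which had no reads, were the only other members with a match, so that 6.52% of the 46 windows held one. A match is only a run of letters, and no match says nothing about TCF binding elsewhere. The stretch of the Axin2 window that holds both matches is shown beside the windows of the receptor Fzd4 and the inhibitor Sfrp2, which end at the gene's start and hold none. Capitals mark the matches, and all are given 5′ to 3′ on the plus strand. The Axin2 stretch (chr10:94398535-94398684) comes from 1 of the windows that overlap the gene's span. The other windows are chr1:152692257-152692506 for Fzd4 and chr2:171387286-171387535 for Sfrp2.
Axin2: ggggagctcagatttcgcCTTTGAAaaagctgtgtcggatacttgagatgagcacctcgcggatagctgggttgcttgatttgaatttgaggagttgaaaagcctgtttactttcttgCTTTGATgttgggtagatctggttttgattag
Fzd4: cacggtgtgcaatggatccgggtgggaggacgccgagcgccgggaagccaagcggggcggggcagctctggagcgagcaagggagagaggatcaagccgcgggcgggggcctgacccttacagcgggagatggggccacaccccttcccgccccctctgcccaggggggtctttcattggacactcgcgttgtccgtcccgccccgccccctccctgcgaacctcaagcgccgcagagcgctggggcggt
Sfrp2: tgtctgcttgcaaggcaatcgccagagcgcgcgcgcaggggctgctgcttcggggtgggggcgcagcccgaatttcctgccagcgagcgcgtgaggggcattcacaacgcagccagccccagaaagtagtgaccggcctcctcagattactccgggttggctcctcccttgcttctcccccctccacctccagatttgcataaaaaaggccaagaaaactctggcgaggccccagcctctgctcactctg

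Of the 4 nuclear factors, 2 were downregulated, beside 9.25% of all tested genes, and the difference from the other 2 was not tested. Tcf7l1, known mainly as a repressor of target genes when β-catenin is absent, was at 23.7, 24.8, 21.6 and 16.7 CPM in the BAPN libraries and at 59.0, 35.0, 55.0 and 56.8 CPM in the vehicle libraries. Vehicle 2 was the lowest vehicle library and was still above all BAPN libraries. The means were 21.7 ± 3.58 and 51.5 ± 11.1 CPM (SD, n = 4 in each group), and the log2 fold change was -1.25 (SE 0.19, FDR 0.00892, the lowest FDR of the members). Tcf7l2 was at 17.6, 18.7, 17.0 and 17.9 CPM in the BAPN libraries and at 27.2, 22.8, 29.0 and 33.5 CPM in the vehicle libraries. The BAPN libraries were nearly equal and lay below all vehicle libraries (log2 fold change -0.66, SE 0.13, FDR 0.017). Tcf7l1 kept its call whichever library was left out, and Tcf7l2 lost its call without Vehicle 1 (FDR 0.0516).

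Tcf7 and Lef1, which are also expressed by T cells, were not called. Tcf7 was at 24.3, 16.2, 11.9 and 5.45 CPM in the BAPN libraries and at 8.33, 14.6, 12.6 and 16.7 CPM in the vehicle libraries (log2 fold change 0.15, SE 0.48, FDR 0.812). Lef1 was at 2.76 to 6.18 CPM with BAPN and at 2.68 to 6.33 CPM with vehicle (log2 fold change 0.03, SE 0.35, FDR 0.952). Both spreads were wide, and their direction changed when single libraries were left out.

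**Figure D3:**
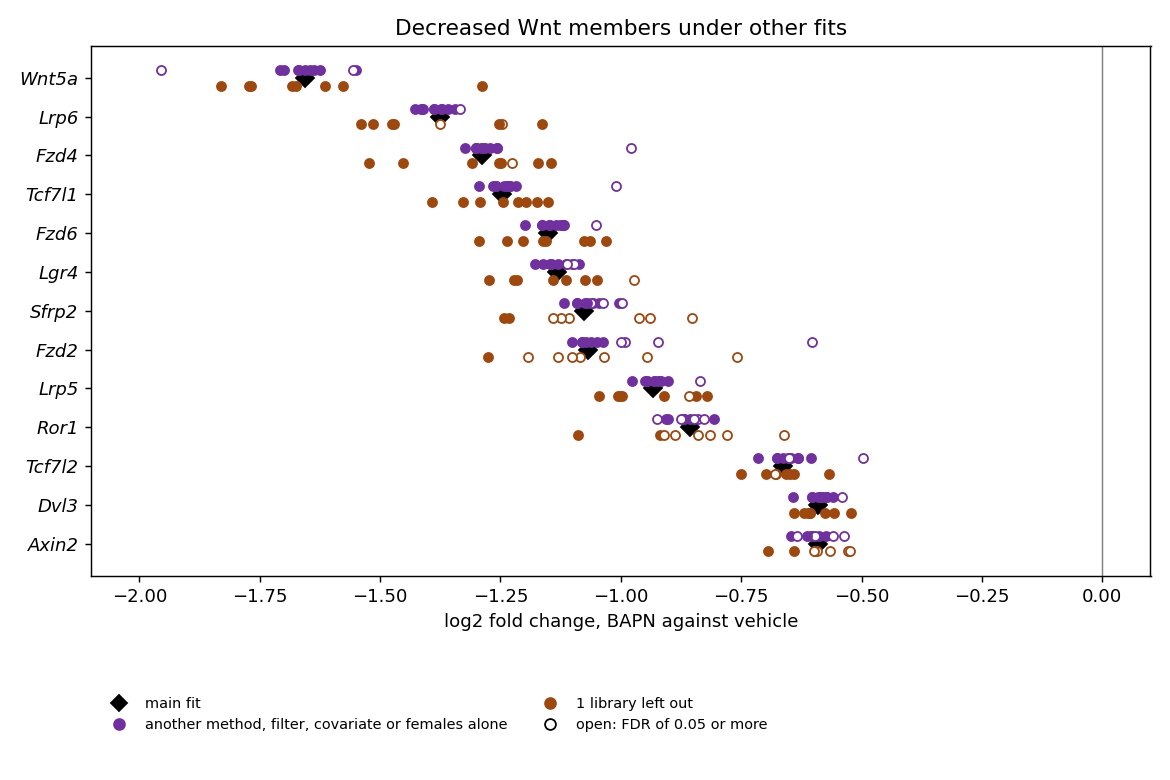
Log2 fold change (horizontal axis, BAPN against vehicle) of the 13 downregulated members in the main fit (diamonds), with another method, scaling, filter, covariate, thinning or females alone (upper row of points) and with each library left out (lower row); open points have an FDR of 0.05 or more. All points lie below 0, and Fzd2, Ror1, Sfrp2 and Axin2 have the most open points.

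The libraries took the same places across many of the 13 members. Vehicle 4 was the highest vehicle library for 7 of them and Vehicle 1 for the other 6, while Vehicle 2 was the lowest for 12. In the BAPN group, BAPN 2 was the highest for 7 members and BAPN 3 the lowest for 9. The mean was lower with BAPN for all 13 members among females, and the value of the BAPN male was below the mean of the vehicle males for all 13.

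Under the count filter lay 28 members, 15 of them ligands. Wnt3, Wnt3a, Wnt8a, Wnt8b and Dkk1 had 0 reads in all libraries, where a count of 0 allows a level of up to 0.0574 to 0.153 CPM depending on the library, for counting error only. Another 7 had fewer than 50 reads in all 8 libraries together (Wnt1, Wnt7a, Wnt7b, Wnt10a, Fzd8, Fzd10 and Dkk4). The remaining 16 had 50 reads or more and were the ligands Wnt2b, Wnt4, Wnt5b, Wnt6, Wnt9a, Wnt10b and Wnt11, the receptors Fzd3, Fzd5 and Fzd9, the inhibitor Wif1, the R-spondins Rspo2, Rspo3 and Rspo4, their receptor Lgr5, and Rnf43, a ligase that removes Frizzled from the cell surface. Without the filter their log2 fold changes ran from -2.01 for Lgr5 to 1.06 for Wnt4. In a fit without the filter, which called 4.03% of 20421 genes as lower, none of the 28 passed (lowest FDR 0.125, for Wnt11) and 11 members in all were called lower. Those were the 13 without Axin2 and Ror1.

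Wnt11, a ligand of the branches without β-catenin, was just below the filter with a base mean of 97.1. It was at 1.63, 2.74, 2.39 and 1.87 CPM in the BAPN libraries and at 4.98, 3.57, 4.17 and 2.92 CPM in the vehicle libraries, so that the groups did not overlap. Wnt5b, the relative of Wnt5a, was separated in the opposite direction, at 2.89, 3.67, 3.43 and 3.61 CPM in the BAPN libraries and at 2.08, 2.79, 1.73 and 1.46 CPM in the vehicle libraries (log2 fold change 0.75, FDR 0.178 without the filter). Of the 28 members under the filter, these were the only ones whose groups did not overlap, while among the tested genes 11.9% did not overlap with BAPN lower and 12.7% with BAPN higher. Lgr5, also a stem cell marker in epithelia, was at 5.74 CPM in Vehicle 4 and at or below 0.784 CPM in the other 7 libraries.

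**Figure D4:**
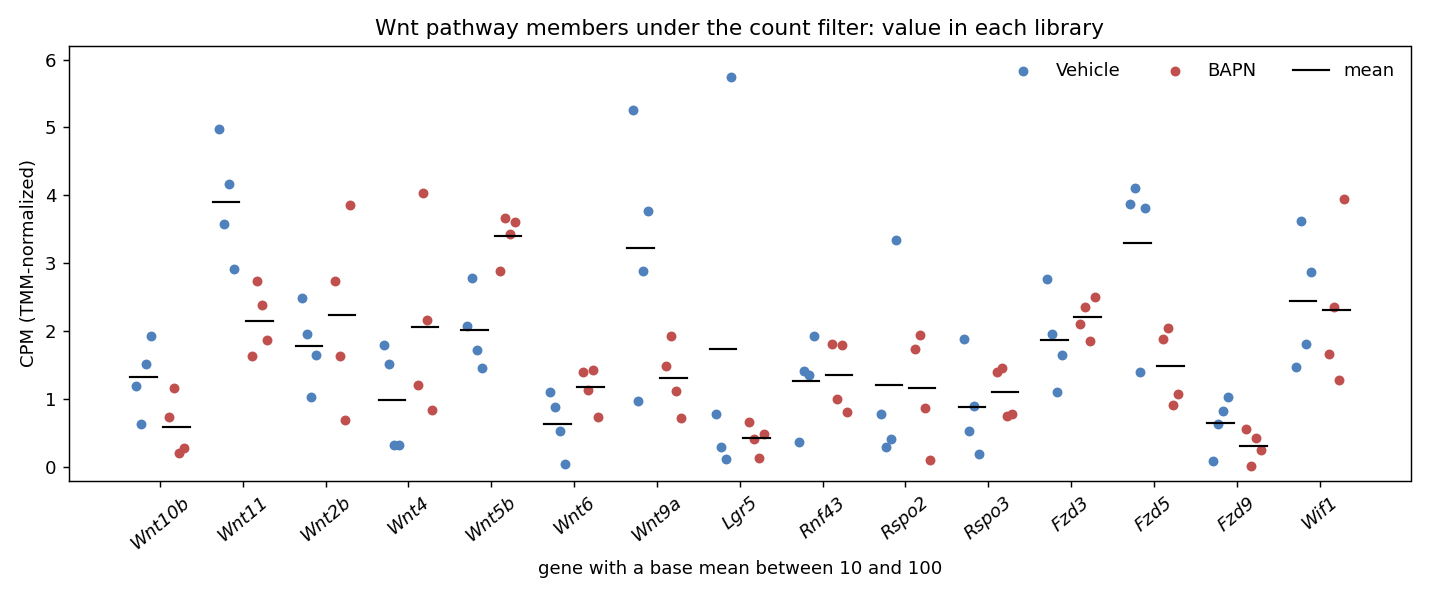
CPM in each library (points, black lines are group means) of the 15 Wnt members with a base mean between 10 and 100. Groups stay apart for Wnt11, lower with BAPN, and for Wnt5b, higher with BAPN; Lgr5 is high in Vehicle 4 alone.

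Pathway genes outside the rule were taken from a list of 111 names, of which 94 were tested. Of these 16 (17%) were downregulated and 2 upregulated, beside 9.25% and 7.5% of all tested genes. Their median log2 fold change was -0.27, and that of all tested genes 0.02. The downregulated genes with the largest decreases were the glypicans Gpc3 (log2 fold change -2.40) and Gpc6 (-1.45), the membrane inhibitor Apcdd1 (-1.93), the Apc relative Apc2 (-1.62), the feedback inhibitor Nkd1 (-1.61) and the tankyrase Tnks (-1.39), which promotes Axin degradation. For Gpc3 Vehicle 1 was at 72.9 CPM and the other vehicle libraries at 8.26 to 22.7 CPM, and without Vehicle 1 the log2 fold change was -1.55 (FDR 0.0449). Apcdd1, Apc2 and Tnks kept their calls whichever library was left out, and Gpc3, Gpc6 and Nkd1 lost theirs without some libraries. Apcdd1 was at 5.58 to 9.67 CPM with BAPN and at 22.8 to 33.5 CPM with vehicle (SE 0.22, FDR 0.00413). Nkd1, like Axin2 a known feedback target of the pathway, was at 9.67, 16.8, 6.85 and 6.55 CPM in the BAPN libraries and at 48.9, 23.5, 23.4 and 26.0 CPM in the vehicle libraries (SE 0.34, FDR 0.0221). The upregulated genes, named after their values were seen, were the protein phosphatase 2A subunit Ppp2ca (0.97, SE 0.10, FDR 0.00232) and the chromatin cofactor Ruvbl1 (0.53, SE 0.15, FDR 0.0323), whose call was kept only without BAPN 4 among the 8 fits with 1 library left out. Feedback and target genes had 3 of 19 downregulated, beside the 9.25% of all tested genes, and 0 upregulated. The 3 were Nkd1, Ccnd2 and Msx1, the last pair named after their values were seen. DESeq2 called 5 of the 19 lower and 1 higher, Fosl1, also named after its values were seen (edgeR log2 fold change 1.38, FDR 0.0707). Over all 11682 tested genes DESeq2 called 1763 lower and 1439 higher. Ccnd2 kept its call in 6 and Msx1 in 2 of the 8 fits with 1 library left out. The 18 calls of the list became 5 without Vehicle 1 and 9 without BAPN 3 or without BAPN 4. Of all tested genes, those fits called 2.11%, 3.78% and 3.96% lower.

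Some markers of the cell types of the vein also passed the test, which called 9.25% of all tested genes lower and 7.5% higher. The median log2 fold change was -1.12 for the smooth muscle list, -0.55 for the endothelial list and -0.47 for the fibroblast list, beside -0.59 for the Wnt members. It was 0.25 for the macrophage list, 1.35 for the T cell list and 0.054 for the Schwann cell list. Medians over few tested markers were -0.92 for the mast cell list (3 tested), -1.21 for skeletal muscle (2 tested) and -1.52 for adipocytes (4 tested). Of 6 smooth muscle markers 4 were downregulated and none upregulated, with a summed level of 1433 to 3989 CPM with BAPN and 2930.1 to 5536 CPM with vehicle. Endothelial markers (2 of 5 tested downregulated) summed to 433 to 547 CPM with BAPN and 642 to 1348 CPM with vehicle. None of 6 fibroblast markers passed (13440.5 to 20452 CPM with BAPN and 15009.7 to 54368.5 CPM with vehicle), nor did any of 6 macrophage markers (2509 to 3192 and 1778 to 2855 CPM). Of 6 T cell markers 2 were upregulated (343 to 449 CPM with BAPN and 283 to 487 CPM with vehicle). The defining markers Myh11 and Acta2 were at or above 276 CPM in every library. Of the adipocyte markers 1 of 4 was downregulated (1069 to 2976 CPM with BAPN and 430 to 1678 CPM with vehicle over the list, a sum whose range lay higher with BAPN while the median of the list was below 0), and the 1 tested B cell marker was upregulated (log2 fold change 2.55) (2.06 to 30.1 and 1.27 to 6.60 CPM over the list). Schwann cell, skeletal muscle and mast cell lists had no call, and no keratinocyte marker was abundant enough to be tested. The summed levels of these 4 lists overlapped between the groups. A defining marker of B cells, of skeletal muscle and of keratinocytes was at 0 in at least 1 library, and no defining marker was at 0 in all 8. The part of these cell types in the Wnt results was not tested.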

How the data were processed

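Total RNA of 8 outflow veins was depleted of ribosomal RNA and made into stranded libraries. The submitters' processing notes name bcl2fastq 2.17, Trim Galore and STAR; the counting tool, strand setting and genome build are not given in the sources used here. The authors deposited raw read counts per Ensembl gene, 1 library per file, which were used as they are. Groups, replicate numbers and sex came from the sample labels, which name no batch. Each library was taken as 1 replicate, from 1 rat, because the published methods assign 8 rats to RNA sequencing. Counts of replicate libraries differed well beyond sampling (a chi-square of 68.6 or more per degree of freedom in the 12 pairs). That difference cannot by itself show that the libraries came from separate rats.

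Genes averaging 100 or more normalized counts (DESeq2 1.42.0 size factors), the limit in the published methods, were compared with edgeR 4.0.16 (TMM scaling, quasi-likelihood test with no covariate, Benjamini-Hochberg adjustment over all tested genes) in R 4.3.3. These genes held at least 99.5% of the reads of each library. Standard errors came from limma 3.58.1 (voom). The steps were tested on simulated counts. Alternatives were other scalings, DESeq2, limma-voom, other filters, sex as a covariate, the replicate number as a block, females alone, thinning to equal totals (seed 20) and leaving out each library. Library values were given for downregulated members and for the 2 tested members of each role with the highest base mean (of the other pathway genes, the 6 called ones with the largest change were named), and further for members whose groups or single libraries stood apart, chosen after their values were seen. The members, lists and tests were chosen with earlier results of these data known.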

Additional observations from a re-analysis of the deposited data

Results flagged for a closer look

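In a group of 4 libraries, a value was flagged when its gap to the nearest other library, divided by the group's range, exceeded Dixon's critical value for 4 values. Of 68 groups looked at (34 members in 2 groups), 6 were flagged, and chance flags about 1 in 20. Wnt9b was at 23.7 CPM in Vehicle 1 and at 0 to 0.939 CPM in the other vehicle libraries. Vehicle 4 was high for Fzd7 (35.4 CPM, the others 20.4 to 22.0) and for Ryk (79.3 CPM, the others 53.2 to 57.6). Tcf7l1 was low in Vehicle 2 (35.0 CPM, against 55.0 to 59.0 CPM). In the BAPN group, Wnt2 was high in BAPN 2 (6.61 CPM, against 2.84 to 3.28 CPM), and Sfrp2 was low in BAPN 3 (196 CPM, against 277 to 289 CPM).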

How the results depend on the processing

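The 13 downregulated members had a negative log2 fold change in all 19 alternative fits. Of the values of the 34 tested members under those fits, 551 kept their direction and their side of the threshold, 59 lost the call, 5 gained one and 31 changed sign. The 13 calls were unchanged with DESeq2's size factors, upper-quartile scaling and thinning. With no normalization beyond total counts there were 14 (9.94% of all genes in that fit called lower), with limma-voom 12 (8.83%), with edgeR's own filter on low counts 12 (6.94%), with no filter 11 (4.03%) and with sex as a covariate 9 (4.63%). No scaling moved the median of all genes by more than 0.1 on the log2 scale.

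The number of genes called, 1957, was 3202 with DESeq2, 930 with sex as a covariate, 89 in females alone and between 397 and 2215 with a library left out. Downregulated members numbered 0 in females alone and 4 to 13 with a library left out, and the median of the tested members ran from -0.69 to -0.37 (lowest without BAPN 2, highest without Vehicle 4). Other pathway genes, 18 called, became 31 with DESeq2, 2 in females alone and 5 to 22 with a library left out.

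With the replicate number as a block, 556 genes in both directions (3.05% of the tested genes lower), 6 members, all lower, and 8 other pathway genes were called; Wnt5a (FDR 0.0506), Lgr4, Fzd2, Ror1, Sfrp2, Axin2 and Tcf7l2 lost their calls. Whether the numbers pair the libraries cannot be decided from 4 pairs. Deviations of same-numbered libraries correlated between -0.26 and 0.27 over 4 pairs, and those of differently numbered libraries between -0.35 and 0.36 over 12. Of 8 libraries, 3 correlated best with their own number. In this block fit Sfrp5 was -0.13 and Ryk 0.0018.

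Changes of sign were among members that were not called, and the cause was not tested. Sfrp5 was -0.0056 with upper-quartile scaling, -0.095 with total counts only, -0.017 with limma-voom, -0.024 with sex as a covariate and -1.29 in females. Lef1 was -0.049 with total counts only and -0.41 in females. Ryk was 0.0031 with limma-voom, 0.013 with no filter, 0.013 with sex as a covariate and 0.12 in females. Limma-voom gave 0.80 for Wnt9b. With sex as a covariate Tcf7 was -0.053 and Ror2 0.031. In females Ror2 was 0.43, Dkk3 0.090 and Wnt16 0.47. With a library left out the ranges were -0.70 to 0.34 for Sfrp5, -0.16 to 0.25 for Lef1, -0.080 to 0.13 for Ryk, -4.01 to 1.46 for Wnt9b, -0.22 to 0.41 for Tcf7, -0.23 to 0.015 for Sfrp4, -0.33 to 0.24 for Ror2 and -0.31 to 0.061 for Sfrp1.

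The groups held 4 rats each, with 1 male in the BAPN group. Depth differed by a ratio of at least 2.01, and thinning to equal totals kept the 13 calls. Members with 0 reads are known only to be under the limit of each library.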
